A study of Mus musculus with 5 samples.

Results

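The xenobiotic metabolising enzymes of the liver were taken as all array probes whose gene symbol begins with Cyp and a digit, or with the stems of the glucuronosyltransferases (Ugt1, Ugt2), glutathione transferases (Gst), sulfotransferases (Sult), carboxylesterases (Ces1 to Ces3), flavin monooxygenases (Fmo), aldehyde oxidases (Aox) and aldehyde dehydrogenases (Aldh), together with Por, Ephx1 and Nqo1. The rule found 85 of 20355 probes, for 73 of 9930 named genes. Among them is a probe that belongs to Fmod, fibromodulin, a collagen-binding matrix protein that shares only the letters of its symbol with the flavin monooxygenases. It was kept as a member and left out of the enzyme classes. The 84 enzyme probes comprised 30 of cytochromes P450, 26 of conjugating enzymes (19 GST, 4 SULT, 3 UGT) and 28 of other enzymes (16 ALDH, 8 CES, 2 AOX, 1 each for Fmo1 and Ephx1). No probe carried the name Por or Nqo1 (0 probes each). The same held for Cyp1a2, Cyp2e1, Cyp7a1, Cyp8b1, Ugt1a1, Ugt2b5 and Fmo5, so the results below do not cover these genes.

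The liver RNA came from 5 male mice, 17 weeks old and homozygous for the eyeless allele of Pitx3 (Pitx3eyl-/-), a transcription factor gene known for its part in lens and midbrain dopamine neuron development. Every mutant animal had a 2-colour array of its own, shared with a pool of wild-type RNA. Mutant RNA carried Cy5 on replicates 1, 2 and 4 and Cy3 on replicates 3 and 5. The pool held 4 animals per the sample labels and 6 per the labelling protocol. The values are log2 ratios, taken here as mutant over pool; this direction is likely but not settled by the sources used. The pool is 1 control sample, so every error below leaves out the spread between wild-type animals, and the genetic background of the line, beyond the eyeless allele, is not given in the sources used here.

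Hepatocytes clear drugs, pollutants and plant compounds in steps. Cytochromes P450, haem enzymes of the endoplasmic reticulum that take electrons from the reductase POR, add oxygen to a substrate. Carboxylesterases hydrolyse esters, aldehyde dehydrogenases and aldehyde oxidases oxidise aldehydes and heterocycles, and epoxide hydrolase opens epoxides. Transferases then attach glutathione, sulfate or glucuronic acid, which makes the product soluble for export. Several P450s of higher family numbers act on sterols, bile acids, steroids or fatty acids rather than on foreign compounds.

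No enzyme of this set was called different between mutants and pool. limma's moderated test, fitted over all 11300 probes with enough values, called 0 of the 51 member probes it could test, at a lowest Benjamini-Hochberg adjusted p of 0.999 (background: 0.0% of all tested probes called). At an unadjusted p under 0.05 there were 4 member probes above 0 and 0 below (Ces1a, Cyp2d10, Aldh3a2 and Aox3). These are 4 of 51 members, where 4.16% of all tested probes passed that threshold, 2.35% above 0 and 1.81% below. The count was 2 when arrays were centred on their medians, without replicate 2 and without replicate 3. Of the 51 coefficients, 26 lay above 0 and 25 below, with a median of 0.00, against 6087 above and 5213 below with a median of 0.04 over all tested probes. In whole tissue, fewer cells of a type and less RNA per cell cannot be told apart.

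Arrays differed in how many enzymes they measured. Between 56 and 69 of the 85 member probes had a value on an array. On all 5 arrays 35 members were measured (41.2%, against 31.3% of all probes), 34 members had values on 3 or fewer arrays, and 2, Cyp39a1 and Fmo1, on none. Of the P450 probes 7 of 30 were complete, of the conjugating enzymes 12 of 26 and of the other enzymes 15 of 28. A coded value, a single number per array read as a ratio without a measurable denominator, stood in 6 member cells, on probes of Cyp4f13, Aldh16a1, Cyp11a1, Cyp51, Cyp39a1 and Aox3, and was set to missing. The members' arrays correlated with each other only weakly. In the 6 pairs of arrays with opposite dyes Pearson's r over the members was below 0 each time, from -0.29 to -0.02 (46 to 59 probes a pair), and over all probes from -0.26 to -0.05. In the 4 pairs with the same dye it ran from -0.22 to 0.21 over the members and from -0.02 to 0.11 over all probes. These correlations are descriptions, since all arrays share the pool.

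The tissue label could not be checked by level, because a ratio against liver RNA carries none. Of the 8 hepatocyte markers 6 had probes, and the list's median ran from -0.26 on replicate 2 to 0.23 on replicate 1. Markers of other cell types gave ranges of their own: the bile duct list (6 probes) ran from -2.12 on replicate 1 to 1.01 on replicate 3, the Kupffer cell list (2 probes) from -1.22 to 1.74 and the endothelial list (4 probes) from -0.70 to 0.97. The stellate cell list (7 probes) lay between -0.34 and 0.61, the erythroid list (7 probes) between -0.06 and 0.57, and 1 pancreas probe between -0.48 and 1.04. limma called 0 probes of these lists at an adjusted or unadjusted p under 0.05. Their part in the enzyme values was not tested.

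The comparison of P450s with the conjugating and other enzymes was made on each array from the median log2 ratio of every class member measured there. The P450 median lay close to 0 throughout: 0.12, 0.01, -0.05, 0.05 and -0.02 on replicates 1 to 5, from 17 to 23 probes. Arrays were not centred, and their own medians ran from -0.19 on replicate 1 to 0.23 on replicate 5. Measured from the median of its array, the P450 median was 0.31, 0.04, -0.05, -0.07 and -0.25 on replicates 1 to 5. Conjugating enzymes had medians of 0.20, -0.44, -0.32, -0.18 and 0.04 in the same order, from 17 to 23 probes. Other enzymes had 0.28, 0.00, 0.24, 0.38 and 0.26, from 20 to 24 probes. The conjugating class was thus the lowest of the 3 on replicates 2, 3 and 4 and not on replicates 1 and 5. Within a class the probes were spread far more widely than the medians: the middle 50% of the P450 values on replicate 1, for example, reached from -1.0 to 0.50, and on replicate 4 from -0.45 to 1.79.

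**Figure D1:**
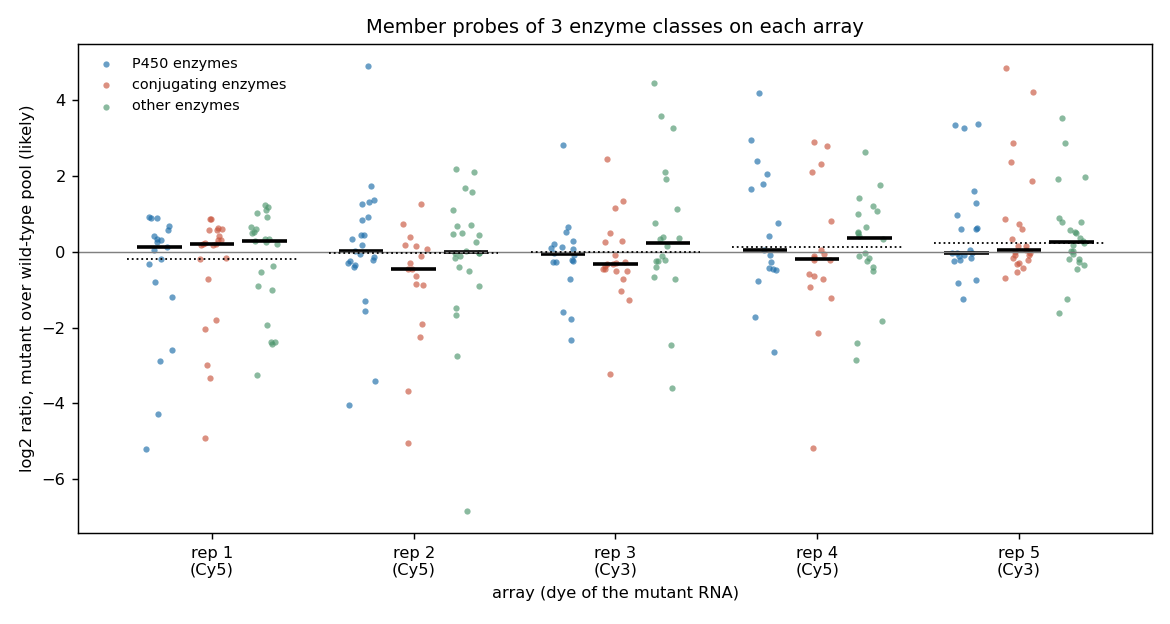
Log2 ratios (vertical axis) of all measured enzyme probes on each of the 5 arrays (horizontal axis, with the dye of the mutant RNA), 1 point per probe, with P450s in blue, conjugating enzymes in red and other enzymes in green. Black bars are class medians and dotted lines the medians of all probes of an array; the class medians lie between -0.44 and 0.38, while single probes reach several log2 units to either side.

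Between P450s and conjugating enzymes the difference of medians was -0.08, 0.45, 0.27, 0.23 and -0.06 on replicates 1 to 5, a mean of 0.16 ± 0.23 (SD, n = 5 arrays). It was positive on 3 arrays and its mean was smaller than the spread between arrays. When the same probes, those measured on all 5 arrays, were used throughout, the difference was 0.16, -0.01, 0.47, -0.06 and 0.00, with 2 arrays above 0 (mean 0.11 ± 0.22), so the sign on replicates 1, 2 and 4 depended on which probes were counted. P450s minus other enzymes gave -0.16, 0.01, -0.30, -0.33 and -0.28 on replicates 1 to 5, below 0 on 4 arrays, a mean of -0.21 ± 0.14 (SD, n = 5). On the complete probes this difference was below 0 on 5 of 5 arrays, from -0.44 to -0.09. No p-value is given for these differences, since the members were chosen with earlier results of these data known.

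Conjugating enzymes lay below the other enzymes on 5 of 5 arrays, a comparison chosen after the values were seen. Array by array the difference was -0.09, -0.44, -0.56, -0.56 and -0.22, a mean of -0.37 ± 0.21 (SD, n = 5), and on the complete probes it ran from -0.56 to -0.10. This order holds for the deposited signs. With the sign of the 2 Cy3 arrays turned the mean was -0.06 ± 0.46 for conjugating minus other enzymes and 0.02 ± 0.27 for P450s minus other enzymes.

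**Figure D2:**
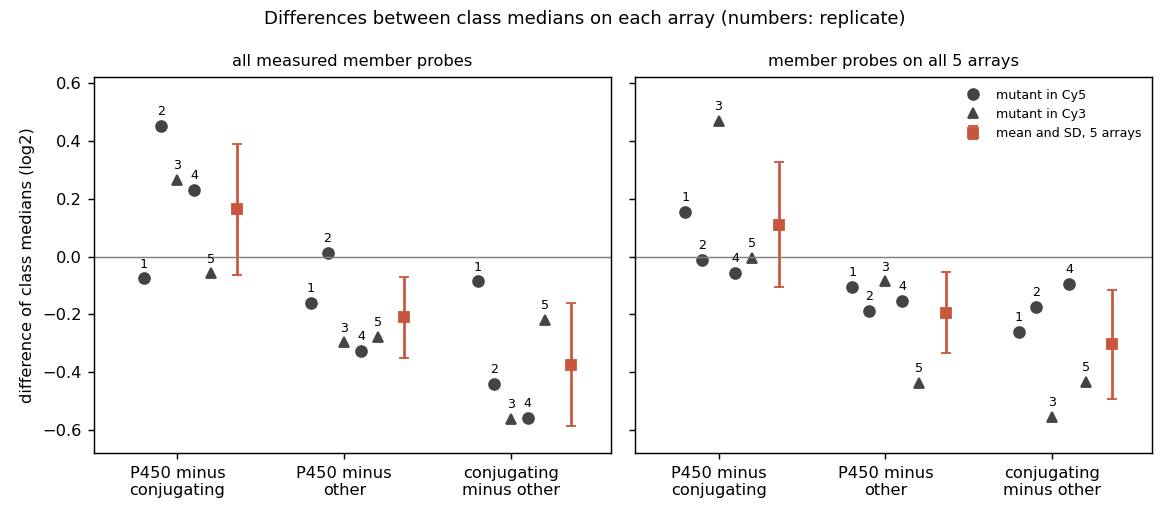
Differences between class medians in log2 units (vertical axis) for the 3 pairs of classes (horizontal axis), from all measured member probes on the left and from the probes measured on all 5 arrays on the right. Numbered points are arrays, circles with the mutant in Cy5 and triangles with it in Cy3, and squares with bars are the mean and SD of 5 arrays; conjugating minus other is below 0 on every array in both panels.

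Among the P450s of the CYP1 to CYP3 families, which hold most drug-oxidising members, 15 probes were present and 7 tested, 4 above and 3 below 0. Cyp2d10, of the CYP2D family, had the lowest p of all P450s. Its log2 ratios were 0.93, 2.81, 4.20 and 1.28 on replicates 2, 3, 4 and 5, and replicate 1 had no value. All 4 arrays lay above 0, at a coefficient of 2.30 ± 0.69 (SE; limma unadjusted p = 0.0267, adjusted p = 0.999). Without replicate 4 it was 1.49 (unadjusted p = 0.0739) and without replicate 3 it was 1.92 (unadjusted p = 0.112), both by limma, and with the sign of the Cy3 arrays turned 0.26. Cyp2d10 had too few values for a fit once the simple-fraction values described under processing were left out. Its family neighbours gave other values. Cyp2d26 had -0.20, -0.34, -0.27, 0.43 and -0.03 on replicates 1 to 5. Cyp2d22 was measured on 3 arrays at 0.17, 2.39 and 0.61, Cyp2d40 on 2 at 1.37 and 0.60, Cyp2d9 on 2 at 1.27 and -0.22, and Cyp2d12 on 3 between -0.73 and 0.33. The CYP2D genes are near-identical in sequence, as are members of the GSTM, CES1 and UGT families, and probe sequences were not used here, so the gene behind a probe of these families is uncertain.

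Cyp3a11, the main CYP3A enzyme of mouse liver and a target of the xenobiotic receptor PXR, was measured on every array, at 0.58, 0.45, -0.03, 0.75 and -0.03. The 3 arrays with the mutant in Cy5 were the higher ones and the 2 with it in Cy3 lay at 0. Its coefficient was 0.28 ± 0.26 and its dye coefficient, which measures the mean over Cy5 arrays minus that over Cy3 arrays divided by 2, was 0.31 (limma adjusted p = 0.999 and 0.901). Cyp2c70, which makes muricholic acids in mouse bile acid synthesis, had 0.68 and -0.14 on replicates 1 and 2 and -1.58 and -0.81 on replicates 3 and 5, at a coefficient of -0.46 ± 0.36 (limma adjusted p = 0.999). Here too the Cy5 arrays were the higher ones. Cyp2a12 lay between -0.28 and 0.90 and Cyp2f2 between -0.45 and 0.64 on 5 arrays. Cyp2j9 was among the P450s with the 3 lowest p below 0, at -0.59 ± 0.70, with arrays from -2.34 to 0.96, and took the opposite sign without replicate 3 (0.23). Cyp2b10, the classic phenobarbital-inducible P450, was measured on 3 arrays only, at -3.42, -2.63 and 1.60.

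Of 73 member genes 57 had a start region in the RefSeq table of mouse GRCm38.p6, in 66 windows. The 250 bases before the start of Cyp3a11 and Cyp2c70 are shown because they were the only member windows that held the HNF4 motif CAAAGTCCA, searched on both strands. It was found in 2 of 66 member windows (3.03%) and in 0.384% of all 32851 windows of that length. Capitals mark this motif. A match is a description of the letters and not a site.
Cyp3a11, chr5:145879855-145880104, minus strand: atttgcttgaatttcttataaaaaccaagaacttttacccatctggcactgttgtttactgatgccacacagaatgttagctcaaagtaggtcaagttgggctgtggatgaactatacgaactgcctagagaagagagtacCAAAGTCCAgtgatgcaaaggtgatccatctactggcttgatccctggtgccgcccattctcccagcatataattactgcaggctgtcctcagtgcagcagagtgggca
Cyp2c70, chr19:40187287-40187536, minus strand: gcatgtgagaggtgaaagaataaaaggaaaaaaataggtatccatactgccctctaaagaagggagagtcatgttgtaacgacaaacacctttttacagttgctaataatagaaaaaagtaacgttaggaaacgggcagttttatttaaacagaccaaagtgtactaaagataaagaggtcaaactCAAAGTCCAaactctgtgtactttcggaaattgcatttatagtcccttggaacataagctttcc
On the arrays both genes had higher values with the mutant in Cy5 than in Cy3, as given above. This was not particular to them. Dye coefficients also lay above 0 for members whose windows lacked the motif, such as Ugt1a6a (1.01) and Cyp4f14 (0.40). For other members they lay below 0, such as Gstm3 (-1.57). A link between the motif and the dye pattern was not tested. The probes of HNF4A's own gene, Hnf4a, had values on 2 and 3 arrays, none of them with the mutant in Cy3, and were not tested.

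P450s of sterol and steroid metabolism gave the least variable and some of the most variable values. Cyp27a1, the mitochondrial sterol 27-hydroxylase of the alternative bile acid pathway, had 0.04, 0.01, -0.27, -0.43 and -0.16 on replicates 1 to 5, an SD of 0.20, the smallest of the 35 complete members. Cyp7b1, the oxysterol 7-alpha-hydroxylase of the same pathway and a male-biased liver gene, lay above 0 on all 4 arrays measured, at 0.90, 1.74, 0.12 and 0.04 on replicates 1, 2, 3 and 5. Its values with the mutant in Cy5 were the higher ones, and the coefficient was 0.70 ± 0.34 with a dye coefficient of 0.62 (limma adjusted p = 0.999 for the first). Cyp11a1, the side-chain cleavage enzyme of steroid-making glands, had -2.88, -0.41 and -0.78 in Cy5 and 3.36 on replicate 5, its only Cy3 array. Its coefficient of 1.0 ± 0.64 thus had the sign of 1 of 4 arrays. Cyp51, the lanosterol demethylase of cholesterol synthesis, was measured on 2 arrays by 1 probe (-4.03 and -0.08) and on 1 array by the other (-1.58), and neither was tested.

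The CYP4 family, which hydroxylates fatty acids and eicosanoids, had 6 probes and 3 tested members. Cyp4b1 stayed between -0.49 and 0.41 on 5 arrays. Cyp4f14, a leukotriene hydroxylase of liver, had 0.93, -0.30, 0.28, 2.05 and -0.08, with replicate 4 highest, at a coefficient of 0.49 ± 0.42. Cyp4f18 lay between -0.25 and 0.26 on 4 arrays, and Cyp4a14, a PPARA target, was measured on 2 at 0.22 and 0.05. The largest values came from probes with too few arrays for a test. Cyp4f16 had 0.84, 2.94 and 3.33 on replicates 2, 4 and 5. Cyp4f13 had -4.27 on replicate 1 and 1.79 on replicate 4.

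Glutathione transferases were the largest family, with 19 probes for 15 genes and 13 tested, of which 4 lay above and 9 below 0. The median of their coefficients was -0.12, and 46.1% of all tested probes lay below 0. On single arrays the GST median was 0.20, -0.45, -0.37, -0.21 and 0.14. Gsta3, an alpha class enzyme abundant in mouse liver and known for conjugating aflatoxin epoxide, had the lowest p below 0 of all members. Its values were 0.31, -0.89, -1.03, -0.93 and -0.70 on replicates 1 to 5. Replicate 1 alone was above 0 and the other 4 lay close together, at a coefficient of -0.68 ± 0.33 (SE; limma unadjusted p = 0.0867, adjusted p = 0.999). Without replicate 1 the coefficient was -0.89, with an unadjusted p of 0.0398 and an adjusted p of 0.758 by limma. Gsta2, its alpha class relative, was likewise above 0 on replicate 1 and below 0 on the other 4 arrays, at 0.58, -0.64, -0.51, -0.65 and -0.28.

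The theta and kappa class probes measured on all 5 arrays were also highest on replicate 1, with no common order among the other arrays. Gstt3 had 0.62, -0.11, -0.47, -0.58 and -0.44. Gstk1, the kappa class enzyme of mitochondria and peroxisomes, had 0.59, -0.30, -0.45, -0.10 and -0.15. Gstt2 had 0.40, 0.07, -0.31, -0.21 and -0.21. Gstt2 was above 0 on replicate 2 as well. Gstt1, also of the theta class, was measured on replicates 1 and 5 only, at 0.22 and 0.61. Gstt4 was measured on replicate 4 only, at -1.21. Gstp1, the pi class enzyme that male mouse liver expresses strongly, was the 1 conjugating member below 0 on every array, at -0.19, -0.85, -0.72, -0.16 and -0.08 (coefficient -0.40 ± 0.29, limma adjusted p = 0.999). On replicates 1 and 5 these values lay at or next to the arrays' constants described under processing, -0.19 and -0.08. The sign of Gstp1 there cannot be told apart from that of the constant. Over all complete probes 2.34% lay below 0 on all 5 arrays and 3.65% above.

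The mu class was mixed. Gstm1, the main mu class enzyme of liver, stood at 0.20, -0.46, -0.08, 0.82 and 0.14, a coefficient of 0.11 ± 0.31 that fell to -0.05 without replicate 4. Gstm5 ran from -0.72 to 0.20. Gstm3 stood at -2.98, 0.74 and 0.05 on the Cy5 arrays but at 2.44 and 2.38 on the Cy3 arrays. Its coefficient of 0.84 ± 0.61 was smaller in size than its dye coefficient of -1.57. The tested probe of Gsta4, which conjugates the lipid peroxidation product hydroxynonenal, had -1.80, 1.17, 2.79 and 0.73 on replicates 1, 3, 4 and 5. Its coefficient was 0.72 ± 0.85 and took the opposite sign without replicate 4 (-0.42). A second Gsta4 probe, not tested, had -3.33, -2.24 and 1.86 on replicates 1, 2 and 5. With the probes of a gene averaged, the Gsta4 coefficient was 0.28.

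The window before the start of Gsta3 is shown since this gene had the lowest p below 0. It held the antioxidant response element TGACNNNGC, the motif bound by the oxidative stress factor NRF2. It also held a match on the opposite strand to the C/EBP motif TTGCNNAA and to the HNF1 core GTTAAT, with no overlap between the 3 matches. Capitals mark, from left to right, the HNF1, C/EBP and antioxidant matches. The antioxidant response element was in 4 of 66 member windows (6.06%), before Gsta3, Gstm5, Cyp4f14 and Cyp4f18, and in 10.2% of all windows. The C/EBP motif was in 24.2% of member windows and 9.56% of all, and the HNF1 core in 10.6% and 6.43%. The core GCGTG of the xenobiotic response element, the motif of the aryl hydrocarbon receptor, was in 21.2% of member windows and 28.2% of all. Windows of 1 gene overlap in part, and no test was made of these shares.
Gsta3, chr1:21240335-21240584, plus strand: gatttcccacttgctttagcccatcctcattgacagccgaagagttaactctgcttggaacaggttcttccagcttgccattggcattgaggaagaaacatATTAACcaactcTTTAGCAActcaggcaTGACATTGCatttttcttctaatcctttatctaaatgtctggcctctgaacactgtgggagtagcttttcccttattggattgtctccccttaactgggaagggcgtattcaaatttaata

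Sulfotransferases and glucuronosyltransferases were sparse. Sult1a1, the phenol sulfotransferase, had 0.18, -1.91, -1.28, -0.06 and -0.08, so that replicates 2 and 3 were low and the others near 0 (coefficient -0.64 ± 0.44, limma adjusted p = 0.999). Sult2b1, a cholesterol sulfotransferase, ranged from -5.18 on replicate 4 to 1.25 on replicate 2. Ugt1a6a, which glucuronidates small planar phenols, had 0.86, 0.26, 2.89 and -0.52 on replicates 1, 3, 4 and 5 (coefficient 0.87 ± 0.48, dye coefficient 1.01). The coefficient was 0.36 without replicate 4 and 1.38 without replicate 1. Ugt2b36 stayed between -0.23 and 0.59 on 5 arrays, and Ugt2b38 was measured on 3, between -0.32 and 0.87.

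The other enzymes held 3 of the 4 members with an unadjusted p under 0.05. Aldh3a2, the microsomal dehydrogenase of fatty aldehydes and a pericentral liver gene, had 0.92, 0.48, 0.76, 1.43 and 0.53 on replicates 1 to 5. Every array lay above 0 and in both dyes, at a coefficient of 0.79 ± 0.29 (SE; limma unadjusted p = 0.0380, adjusted p = 0.999). With 1 array left out the coefficient was between 0.67 and 0.91, at limma unadjusted p from 0.0594 to 0.168, so each omission ended the unadjusted p under 0.05. With the sign of the Cy3 arrays turned it was 0.15. Aox3, a liver aldehyde oxidase, had 1.23, 2.10, 2.09, -0.23 and 0.79, with replicate 4 as the only array below 0 (coefficient 1.24 ± 0.46, limma unadjusted p = 0.0402). With 1 array left out the unadjusted p by limma missed 0.05 in 4 of 5 cases. Its second probe had values on replicates 2 and 4 only, 0.71 and 0.99, so the arrays' order differed between the probes.

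Ces1a had the lowest p of all members by way of its dye term. On the Cy5 arrays it stood at -1.01, 0.25 and -1.83, on the Cy3 arrays at 4.46 and 2.86, so the dyes did not overlap. The coefficient of 1.40 ± 0.45 (limma unadjusted p = 0.0247) was smaller in size than the dye coefficient of -2.26 (unadjusted p = 0.00349, adjusted p = 0.429). With 1 array left out the coefficient was between 1.0 and 1.80, and its unadjusted p by limma missed 0.05 in 3 of 5 cases. For the dye coefficient limma called 0 of 51 members and 0.0% of all tested probes. At an unadjusted p under 0.05 by limma it had 4 of 51 members (Ces1a, Cyp11a1, Gstm3 and a probe of Gsto1), against 7.38% of all tested probes. All 4 lay below 0, as did most such probes in general: 666 below 0 and 168 above over all tested probes. The dye coefficient was the larger of the pair in size for 24 of 51 members and for 52.9% of all tested probes. Ces1e was above 0 on 5 of 5 arrays, at 1.18, 1.11, 0.34, 0.41 and 0.17 (coefficient 0.57 ± 0.28, limma adjusted p = 0.999), and was named because it kept 1 sign. In all, 3 of 35 complete members (Aldh3a2, Ces1e and Gstp1) had 1 sign on all 5 arrays, against 5.99% of all complete probes. For Gstp1 the limit given above applies.

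Most of the remaining carboxylesterases varied little. Ces2g had 0.35, -0.03, 0.36, 0.52 and 0.01 with an SD of 0.24, Ces1c ranged from -0.51 to 0.33, Ces1f from -0.22 to 0.64 and Ces2a from -0.19 to 0.59. All 4 lay above 0 on replicate 1. Ces3b was more variable: its complete probe ran from -0.67 to 1.09, with an SD of 0.77, and its second probe had values on 3 arrays, from 0.39 to 1.97. Aldehyde dehydrogenases spread further. Aldh1a1, the cytosolic retinal dehydrogenase, had 1.02, 0.02, -0.11, 0.50 and 0.29 (coefficient 0.30 ± 0.30) and Aldh7a1, of lysine breakdown, lay between -0.27 and 0.49. Aldh4a1, of proline breakdown, ranged from -6.84 on replicate 2 to 3.27 on replicate 3 (coefficient -1.82 ± 1.12). Its coefficient was -0.72 without replicate 2 and -0.69 without replicate 5, and -2.91 and -2.94 without replicates 1 and 3. Aldh3a1, the corneal enzyme, ranged from -2.38 to 2.63. Aldh2, the mitochondrial enzyme of alcohol clearance, was measured on replicates 1, 3 and 5 at -2.39, -2.47 and -1.62 by 1 probe and on replicates 1 and 5 at -1.93 and 1.91 by the other, and was not tested. Ephx1, the microsomal epoxide hydrolase, had 0.28, -0.41, 1.13, -2.86 and 0.79, with replicate 4 far below the rest (coefficient -0.02 ± 0.53, and 0.45 without replicate 4). Fmod, the matrix protein, lay between -5.21 and 1.15.

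**Figure D3:**
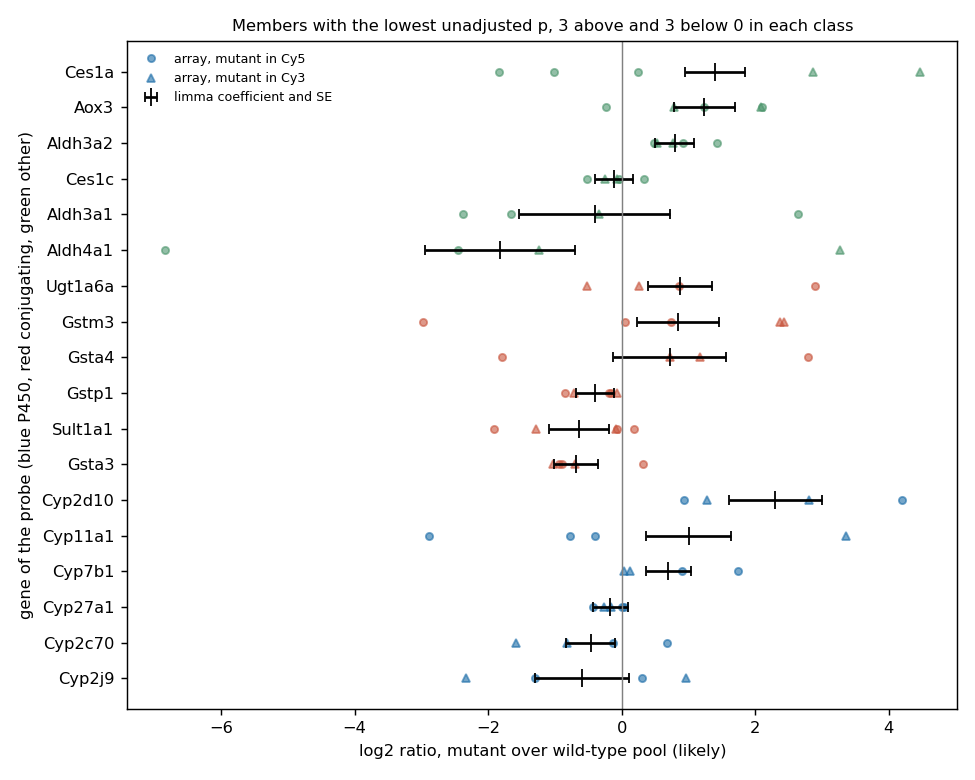
Log2 ratios of each array (points, circles with the mutant in Cy5 and triangles with it in Cy3) and limma coefficients with SE (black) on the horizontal axis for the 3 members above and 3 below 0 with the lowest unadjusted p in each class. Aldh3a2 lies between 0.48 and 1.43 on all arrays, while the circles and triangles of Ces1a do not overlap.

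How far the arrays' values lay apart was read from the SD over the 5 arrays, uncentred and without a dye term. This SD holds differences between dyes and between arrays as well as those between animals. For Ces1a, which had the largest SD, the dye coefficient was -2.26. The 35 complete members had a median SD of 0.47 log2 units, from 0.20 for Cyp27a1 to 2.65 for Ces1a, against 0.71 over all 6364 complete probes. By class the median SD was 0.35 for P450s (7 probes), 0.48 for conjugating (12) and 0.47 for other enzymes (15). An SD under 0.6, a line drawn after the values were seen between Gsta3 at 0.55 and Ces3b at 0.77, was found for 23 of 35 complete members and for 41.8% of all complete probes. These are descriptions without a test.

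Replicate 1 was the highest array for most, not all, of these 23 low-spread members. Their median was 0.49 on replicate 1 and -0.03, -0.22, -0.16 and -0.07 on replicates 2 to 5. On replicate 1, 21 of 23 lay above 0, and 16 of 23 (69.6%) had their highest value there, 3 of 6 among the P450s. Gstm1, Aldh3a2, Cyp3a11, Ces2g and the low-spread probe of Cyp2d26 were instead highest on replicate 4, Cyp2f2 on replicate 3 and Gstp1 on replicate 5. The 8 GST probes among them had medians of 0.36, -0.38, -0.46, -0.39 and -0.18. The 5 carboxylesterases had 0.59, -0.03, 0.15, -0.12 and 0.01. Replicate 1 also stood highest for low-spread probes in general: over all 2662 such probes the medians were 0.26, 0.00, -0.11, -0.13 and 0.02, and 44.9% had their highest value there. Of the 5 complete hepatocyte marker probes 2 (40.0%) were highest there, those of Fgb at 0.83 and Hpx at 0.63, while albumin, Alb, stood at -0.19 there and between -0.34 and 0.08 on the other arrays. The median of these 5 probes on replicate 1 was -0.07. On replicates 1, 2, 3 and 5 Alb lay at or next to the arrays' constants described under processing (-0.189, -0.335, -0.145 and -0.08). Whether its values there measure albumin RNA was not tested.

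**Figure D4:**
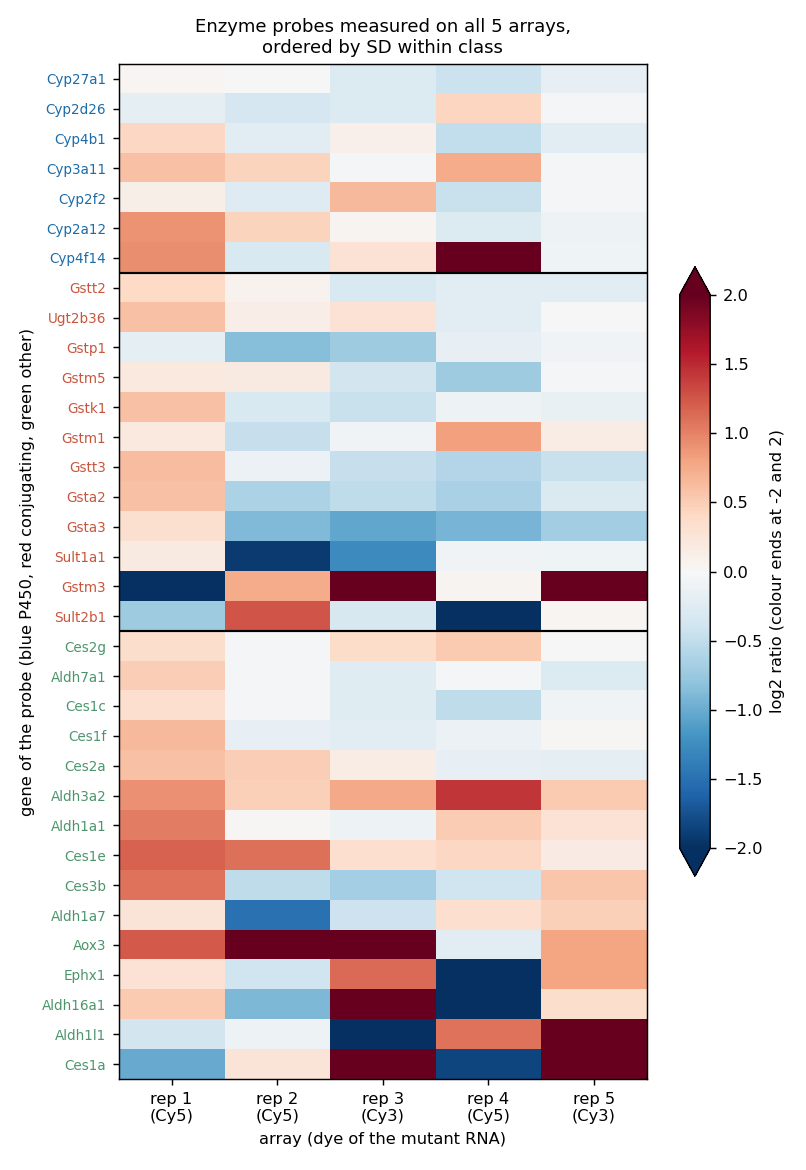
Colour map of the log2 ratios of the 34 enzyme probes measured on all 5 arrays (rows, named by gene and grouped by class, with the least variable probe on top in each class) against the arrays (columns, with the dye of the mutant RNA); red is above and blue below 0, and colours end at -2 and 2. Of the 23 low-spread rows 16 are highest on replicate 1; most of the 9 GST rows lie below 0 on replicates 2 to 5, with Gstm1 and Gstm3 among the exceptions.

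Genes with more than 1 probe gave a check on single probes. There were 11 such member genes, with 13 pairs of probes and 29 pairs of values on a shared array. The sign was the same in 19 of 29, and the median gap between the probes was 1.61 log2 units. For Gsto1, an omega class transferase, 3 probes stood at -0.16, -4.91 and no value on replicate 1 and at 0.87, 2.86 and 4.21 on replicate 5, alike in sign and unlike in size, while on replicate 3 a pair of them stood at -0.50 and 1.35. The low-spread probe of Cyp2d26 had -0.20 on replicate 1 where the other had -5.20. The values of Gstm5 on replicate 1, its only shared array, were 0.20 and 0.19. No member gene had 2 probes that were both complete.

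Genes that regulate or serve these enzymes were read from lists of receptors and transcription factors, electron donors and cofactor suppliers, further metabolising enzymes, and transporters. limma called 0 of their 38 tested probes, and 1 had an unadjusted p under 0.05: Cbr3, a carbonyl reductase, at -0.80, 0.18 and 0.00 in Cy5 and 1.76 and 3.26 in Cy3, a coefficient of 1.15 ± 0.36 beside a dye coefficient of -1.36. Regulators had 5 of 7 tested probes with a coefficient above 0 (median 0.19), and for 5 of 7 the dye coefficient was the larger in size. Rxra, for example, had a coefficient of 0.19 though only replicate 5 (1.77) lay above 0. The receptor genes were measured poorly: the 2 probes of Nr1i2, which encodes PXR, had values on 3 arrays each, between -3.32 and 4.60. For Nr1i3, which encodes the phenobarbital-responsive receptor CAR, the tested probe ran from -5.39 to 1.12 (coefficient -1.81 ± 1.22). Its other probe, not tested, had 1.12, 1.66 and 4.56 on replicates 2, 3 and 5. On replicate 3 the tested probe stood at -5.39, so the probes differed in sign there. Nfe2l2, the gene of NRF2, had -0.05, -1.01 and -1.31 in Cy5 and 0.77 and 2.30 in Cy3.

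Electron donors and cofactor suppliers had 5 of 11 tested probes above 0 (median -0.07). Gclm, the modifier subunit of the enzyme that starts glutathione synthesis, was above 0 on every array, at 0.50, 0.58, 0.47, 0.54 and 0.24 (coefficient 0.45 ± 0.26, limma unadjusted p = 0.139). Its lowest value was that of replicate 5. Cytochrome b5, Cyb5a, which passes electrons to P450s, had 3 tested probes with coefficients of -0.25, -0.08 and 0.16. Other metabolising enzymes had 7 of 14 above 0 (median 0.00), with the alcohol dehydrogenase Adh1 at 0.97, 0.26, -0.31, 0.02 and -0.12. Transporters had 3 of 6 above 0 (median 0.04), with the bile salt export pump gene Abcb11 at 0.94, -0.04, -0.60, -0.32 and 0.10. Adh1 and Abcb11 were both highest on replicate 1.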

How the data were processed

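The members and gene lists were chosen with earlier results of these data known. The authors deposited 1 table of log2 ratios, 20355 probes on each of 5 arrays; that these are log2 values was read from the values, and the sources used here do not name the scanner, the background correction or the normalization. 20 µg of total RNA were labelled indirectly, per the labels' protocols. No value column was left unused (0 columns). Values over 12 in size (788), 1 repeated number per array, were set to missing. The repeated number was positive on Cy5 and negative on Cy3 arrays, from which the dye swaps were read as turned before deposit. This reading is not settled and was not tested. The array correlations were not used for it. Over all probes they were below 0 in 6 of 6 pairs with opposite dyes (-0.26 to -0.05). Pairs with the same dye ran from -0.02 to 0.11. Of the members' values 61 of 314 (19.4%) were, after removal of a constant per array, the log2 of a ratio of whole numbers up to 20 (within 0.001), against 24.2% over all probes, and 1 alternative left these simple-fraction values out. Array medians were -0.19, -0.04, 0.00, 0.11 and 0.23. Depth is unknown, since no intensities were used, and the number of arrays limits the precision.

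Names came from the platform's annotation (14030 probes with 1 symbol, 5 with several, 6320 unnamed); the gene table of GRCm38.p6 held all 85 members and changed 0 symbols. The names on rows were not checked for single probes.

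Probes measured on 4 or 5 arrays, in either dye at least once, were fitted with limma 3.58.1 in R 4.3.3 (3 of 4 sufficed when an array was left out); the model held an intercept and the dye. Adjusted p-values are Benjamini-Hochberg over all tested probes, with a call under 0.05. The script was tested on simulated data. Named members are, per class, the 3 lowest p above and the 3 below 0, 16 landmark genes of 26 listed (the rest had 0 probes), genes with several probes and members with 1 sign on 5 arrays. Member values outside this rule (such as the Cyp2d neighbours, other Gst and Ces genes and Fmod) were chosen after they were seen. 14 other settings and the added ones are in the closing section. Whether the 5 animals shared a litter or a day is not given, so p-values measure only the spread between these samples.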

Additional observations from a re-analysis of the deposited data

Results flagged for a closer look

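Gsta3 on replicate 1, at a log2 ratio of 0.31, stood apart from its other 4 arrays, which lay between -1.03 and -0.70: the gap to the nearest was 75.3% of the whole range. Of the 29 results examined in this way 1 stood out, and chance gives about 1 in 20. The part of replicate 1, which was also highest for 16 of 23 low-spread members, in this value was not tested.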

How the results depend on the processing

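The count of called members was 0 in limma under all 14 alternative settings, with a lowest adjusted p of 0.429 over members and settings, and likewise 0 for the regulators, suppliers, enzymes and transporters. Members at an unadjusted p under 0.05 numbered 2 with arrays centred on their medians and 2 to 6 with 1 array left out. With the sign of the Cy3 arrays turned, P450s minus other enzymes gave 0.0196 and conjugating minus other enzymes -0.0606. No other setting moved a class difference beyond the SD between arrays: 1 array left out gave 0.09 to 0.22 for P450s minus conjugating, -0.27 to -0.18 for P450s minus other and -0.45 to -0.33 for conjugating minus other enzymes. With Fmod among the other enzymes, a setting added after seeing the data, P450s minus other was -0.18. Of 306 coefficients of named members under other settings, 21 changed sign and 285 kept sign and side of the threshold. Without simple-fraction values 37 members were tested. Cyp2d10, Cyp27a1, Gstp1, Gsta4 and Aldh3a1 then had too few values for a fit. With the Cy3 arrays turned, the coefficients were -2.36 for Cyp11a1, 0.74 for Cyp2c70, 0.094 for Cyp2j9, 0.0432 for Cyp27a1, 0.18 for Gsta3, 0.0419 for Sult1a1, -1.57 for Gstm3, -0.23 for Gsta4, -2.26 for Ces1a, -0.20 for Aox3 and 0.0414 for Ces1c; the turned signs themselves set these values. Cyp11a1 was -4.03 with coded values kept and -0.17 without a dye term, and Ephx1 0.0669 with arrays scaled to 1 spread and 0.45 without simple-fraction values; the cause was not tested. Of 23 named coefficients 15 changed sign or moved by over 1.5 times with at least 1 array left out, and 18 with the Cy3 arrays turned, among them Cyp2d10 (0.26), Aldh3a2 (0.15) and Gstp1 (-0.0021). With 1 array left out, the range was -1.18 to 0.0725 for Aldh3a1, -1.42 to 0.23 for Cyp2j9, -0.42 to 1.87 for Gsta4, -0.0482 to 0.27 for Gstm1 and -0.34 to 0.45 for Ephx1. No paired analysis was possible because all samples form 1 group. No signal intensities were used, so signal over background is unknown.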
